A study of Homo sapiens with 12 samples.

Results

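Interferon-stimulated genes (ISGs) are the genes that a cell switches on when it senses interferon, and here 40 of them were followed one by one through oncogene-induced senescence (OIS) and knockdown of XPO7. They were taken by gene symbol from a table of 62069 genes, all 40 were found, and all 40 were among the 15284 genes that passed the filter on low counts. The cells were IMR90 ER:RAS, a line of human lung fibroblasts that carries RAS fused to the ligand-binding domain of the estrogen receptor, in which 4-hydroxytamoxifen (4OHT) switches RAS on. RNA-seq was done on 4 groups of 3 libraries at day 5, and all 4 groups carried ER:RAS. The sample records give every library 7 days of culture and a medium change at day 4. The vector group was the non-induced control without 4OHT (replicates T, A and C). The vector/4OHT group was induced with 100 nM 4OHT (replicates T, A and B). The shXPO7_3/4OHT and shXPO7_5/4OHT groups (replicates T, A and B each) received the same 4OHT and carried an shRNA against XPO7, a nuclear transport receptor. The word vector comes from the study's text, where the sample labels say only non-induced or induced. Because the non-induced cells received no 4OHT, RAS activity and the drug itself cannot be told apart. No source says whether the 3 libraries of each group are separate cultures, and p-values here cover only the spread between libraries, possibly a technical one.

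Levels are given in CPM, counts scaled by TMM to a common library size. Calls are genes with a p under 0.05 from edgeR's quasi-likelihood test, adjusted by Benjamini-Hochberg over all genes tested. Totals ran from 28534141 to 60397769 counts per library. XPO7 was at 129 to 143 CPM in vector, 127 to 144 in vector/4OHT, 26.4 to 28.7 in shXPO7_3/4OHT and 50.8 to 54 in shXPO7_5/4OHT. The 6 fibroblast markers summed to 18373 to 21765 CPM in vector, 11455 to 13055 in vector/4OHT, 12361 to 16043 in shXPO7_3/4OHT and 13889 to 16262 in shXPO7_5/4OHT. Most of it was COL1A1 and COL1A2, and the markers did not move alike. DCN was at 927 to 1028 CPM in vector and 92.6 to 98.0 in vector/4OHT, COL3A1 at 1220 to 1339 and 1095 to 1179. The 3 epithelial markers summed to 31.2 to 37.7 CPM in vector and 1.75 to 3.11 CPM in the induced groups, most of it KRT19, a keratin. Of the 3 endothelial markers only VWF had counts (1.70 to 4.17 CPM). PECAM1 had 0 under the identifier matched to it, may be counted under another, and was not interpreted. These lists thus moved with induction, and their part in the OIS results was not tested. The 5 leukocyte markers summed to at most 0.198 CPM, with CD3E at 0 in all libraries, and LILRA4 and CLEC4C, which define the interferon-producing plasmacytoid dendritic cells, were also at 0 in all libraries. GC-rich transcripts were not equally represented in the libraries. Across all genes, Spearman's rho between a gene's deviation from its mean and its GC content ran from -0.48 to 0.67 over the 12 libraries, so values with an offset for transcript GC content and length (the GC/length correction), added after the data were seen, are given where they change a call of a gene named below.

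Interferons are secreted proteins that bind cell surface receptors and activate the kinases JAK1 and TYK2. Type I interferons lead to a complex with STAT2 and IRF9 in it, named ISGF3, which binds the interferon-stimulated response element (ISRE) in promoters of ISGs, and interferon-gamma acts through the gamma-activated site (GAS). The products sense viral RNA, degrade it, block translation, attach the ubiquitin-like protein ISG15 to other proteins or attract T cells. In fibroblasts many ISGs keep a low level without added interferon, and in senescent cells interferon genes can be switched on by DNA in the cytosol.

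To show the element these genes share, promoter sequences were read from RefSeq (GRCh38.p14), where 32 of the 40 members had a window from 250 bases before to 50 bases after a start, 43 windows in all. OASL, IRF7, TRIM22, IFIT2, GBP2, MX2, USP18 and OAS2 had none. The ISRE core, searched on both strands as GAAA, any 2 bases and GAAA again, stood in 62.8% of the members' windows and in 3.57% of all 35116 windows. The GAS letters, searched as TTCNNNGAA, which read the same on both strands, stood in 32.6% and 7.66%. By what the genes did in OIS, an ISRE core stood before 8 of 10 members that fell, 2 of 4 that rose and 12 of 18 that were not called. Below are the 250 bases before the start of IFIT1 and OAS3, which fell, and of CXCL10 and ISG20, which rose, the largest changes each way among members with 1 window. They show that the same core precedes genes that moved in opposite directions. Capitals mark ISRE cores, read from the other strand in IFIT1.
IFIT1 promoter chr10:89392373-89392622, plus strand: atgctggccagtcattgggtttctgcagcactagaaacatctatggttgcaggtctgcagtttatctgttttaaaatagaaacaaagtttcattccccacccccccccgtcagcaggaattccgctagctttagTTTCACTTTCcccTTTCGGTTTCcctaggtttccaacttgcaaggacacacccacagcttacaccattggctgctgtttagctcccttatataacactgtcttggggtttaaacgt
OAS3 promoter chr12:112938224-112938473, plus strand: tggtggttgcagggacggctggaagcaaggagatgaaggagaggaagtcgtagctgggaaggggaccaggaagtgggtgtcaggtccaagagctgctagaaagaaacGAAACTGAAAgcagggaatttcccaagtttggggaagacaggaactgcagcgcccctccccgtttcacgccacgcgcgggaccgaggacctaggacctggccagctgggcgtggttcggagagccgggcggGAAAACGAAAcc
CXCL10 promoter chr4:76023498-76023747, minus strand: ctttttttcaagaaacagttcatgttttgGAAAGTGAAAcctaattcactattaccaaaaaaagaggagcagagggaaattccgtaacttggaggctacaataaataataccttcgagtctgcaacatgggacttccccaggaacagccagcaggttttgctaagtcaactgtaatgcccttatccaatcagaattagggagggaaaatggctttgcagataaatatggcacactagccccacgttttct
ISG20 promoter chr15:88638766-88639015, plus strand: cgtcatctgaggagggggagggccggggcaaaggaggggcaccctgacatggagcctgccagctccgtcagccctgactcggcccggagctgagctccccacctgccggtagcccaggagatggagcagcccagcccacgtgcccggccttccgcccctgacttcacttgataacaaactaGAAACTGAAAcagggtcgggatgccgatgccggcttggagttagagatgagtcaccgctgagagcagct
IFIT1 and OAS3 had 2 cores each, and CXCL10 and ISG20 had 1 each. A match of letters is a description and no proof of a bound site.

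The members covered a wide range of levels. Per kilobase of exon, the mean in vector was highest for STAT2 at 21.3 CPM, ISG15 at 20.0 CPM, IFI6 at 15 CPM and GBP1 at 9.81 CPM. It was lowest for RSAD2 at 0.0303 CPM and CXCL11 at 0.0344 CPM. Well-known strong ISGs such as RSAD2, CXCL11, OASL and OAS1 were thus close to their limit of detection, and RSAD2 had at least 10 counts in 6 of 12 libraries and CXCL11 also in 6. Their presence among the genes tested rested on the libraries where they were higher, which for RSAD2 were spread over the groups. The heatmap of all members shows each library against the gene mean.

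**Figure D1:**
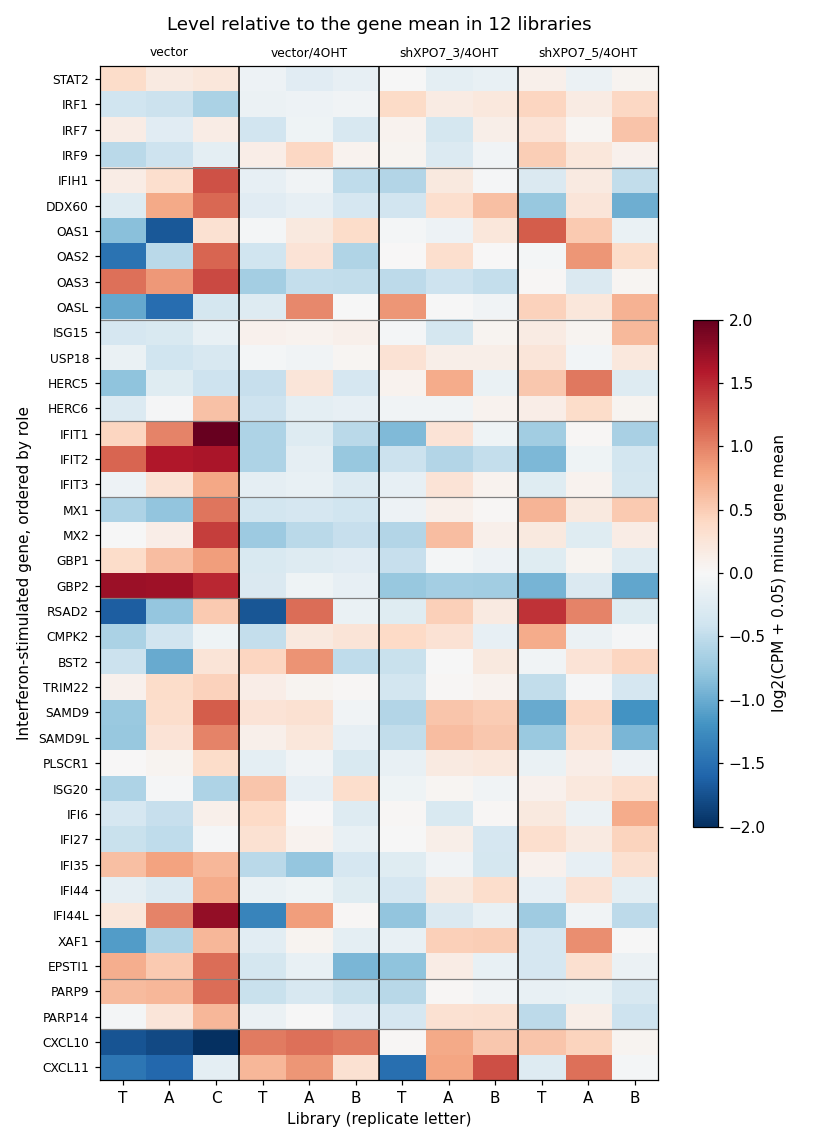
Level of the 40 interferon-stimulated genes (rows, ordered by role) in 12 libraries (columns, by group and replicate letter), as log2(CPM + 0.05) minus the mean of the gene over the 12 libraries, with the color scale ending at 2 either way. Vector replicate C was above the gene mean in 29 members, against 14 and 19 in vector replicates T and A.

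Replicate C of the vector group stood apart from replicates T and A in these genes and was therefore looked at separately. It had been picked because it is unusual for them, so its values are a description without a test. It was the highest of the 3 vector libraries in 32 of the 40 members (80%), where this held for 32.4% of all genes tested. It was the highest of all 12 libraries in 20 members (50%), against 13.8% of all genes. In 18 members (45%) it was at least 1.5 times the mean of T and A, against 5.65% of all genes, and in 14 of them at least 2 times. The median of log2 (C over the mean of T and A) was 0.51 over the members and -0.067 over all genes. After the GC/length correction the medians were 0.57 and -0.0025, and again 18 members reached 1.5 times, against 3.26% of all genes.

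The excess in replicate C was largest in CXCL11, OAS2, RSAD2, MX1 and OAS1, with ratios to the mean of T and A of 5.13, 4.93, 4.87, 3.45 and 3.44. All but MX1 were at 1.22 CPM or less in vector. MX1, a dynamin-like GTPase that blocks virus entry into replication, was at 2.66, 2.33 and 8.61 CPM in vector replicates T, A and C. XAF1, a pro-apoptotic ISG, was at 0.803, 1.17 and 2.89 CPM. SAMD9 and SAMD9L, neighbouring genes on chromosome 7 whose products restrict poxviruses, were at 8.44, 18 and 33 CPM and at 9.73, 20.0 and 32.7 CPM. In each of these, replicate C was the highest of 3 and the other replicates also differed from each other in SAMD9 and SAMD9L. IFI44, a cytoplasmic antiviral protein, was at 4.17, 3.93 and 7.99 CPM, and DDX60, a helicase that promotes RNA sensing, at 4.36, 8.91 and 11.7 CPM, where T stood lower than both others. After the GC/length correction the log2 excess fell in SAMD9 (1.32 to 0.96), SAMD9L (1.14 to 0.85), IFI44 (0.98 to 0.64) and DDX60 (0.82 to 0.57). It grew in MX1 (1.79 to 1.90) and XAF1 (1.55 to 1.71). MX2 and IFIT1 had ratios of 2.65 and 2.40. The excess was not shared by all members. Replicate C was below the mean of T and A in STAT2, IRF1, USP18, GBP2, IFI35, ISG20 and CXCL10, with ratios from 0.786 to 0.976. After the GC/length correction STAT2, USP18 and IFI35 were slightly above it, by 0.056, 0.037 and 0.16 on the log2 scale. HERC5 (0.097 to -0.24) and IFIT2 (0.23 to -0.0056) moved from above it to below. Each role of the list had members on the high side, such as IRF9 among the transcription factors (1.22) and CXCL11 beside CXCL10.

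**Figure D2:**
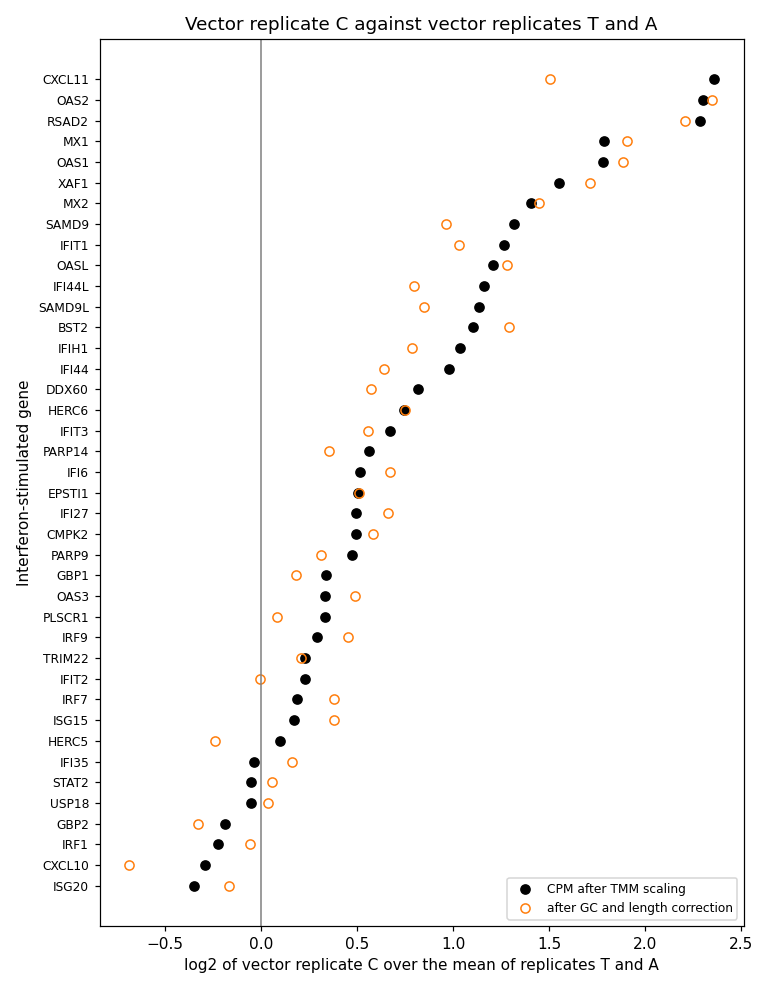
Log2 of the level in vector replicate C over the mean of vector replicates T and A for the 40 members, before (filled) and after (open) the GC/length correction. Most members lie right of 0, CXCL11, OAS2 and RSAD2 farthest before the correction and OAS2 and RSAD2 farthest after it. ISG20, CXCL10, IRF1 and GBP2 lie left of 0.

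The labels give replicate C the same treatment as T and A, and most interferon genes had no counts. IFNB1, IFNA1, IFNK, IFNG and IFNL1 had 0 counts in all 12 libraries, which allows up to 0.105 CPM in the shallowest library, and IFNL2 and IFNL3 had counts in 1 library each. IFNE, a type I interferon of epithelia, was at 0.216, 0.243 and 0.737 CPM in vector replicates T, A and C, so that C was again the highest. The leukocyte markers summed to 0.121 to 0.198 CPM over the vector libraries. Since replicate C is 1 of 3 control libraries, the number called against vector in each list is given below with and without it. A gene's value without it is given where the call changes, and for members also where the direction changes.

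The comparison of vector/4OHT with vector asked how ISGs respond to OIS. Induction moved the members both ways. Of the 40, 6 rose and 13 fell, and 21 were not called. The 19 called are 47.5%, where 50.9% of all genes tested were called, 24.8% as higher and 26.1% as lower. The share of members called was thus close to that of all genes. The shares of 24.8% and 26.1% also stand behind the counts by role below. IFIT2, GBP2, IFIT1 and OAS3 fell most and CXCL10 rose most. The median log2 fold change was -0.32 over the members and -0.0068 over all genes. No vector/4OHT library overlapped with a vector library in 7 members that were higher and 13 that were lower (31.8% and 31.4% of all genes), for which an exact two-sided permutation test gives p = 0.1, the smallest that 3 against 3 allow. These counts include replicate C, which alone kept OAS1, MX1, XAF1, IFI6 and IFI27 from counting as higher. It kept no member from counting as lower. When libraries were scaled by upper-quartile factors, which shifted the median of all genes to -0.10, 3 members were called higher and 18 lower; of all genes 18.8% were then called higher and 30.3% lower.

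Without vector replicate C, 15 members were called (37.5%, against 47.2% of all genes), 6 higher and 9 lower, and 13 of them were among the 19. IFIH1, USP18, IFIT3, MX2, PLSCR1 and ISG20 lost the call, and OAS1 (log2 fold change 1.69) and CXCL11 (3.24) gained it. The median over the members was then 0.14, and -0.039 when the GC/length correction was also made, so no direction of the list as a whole was read from it. After the GC/length correction, 24 members were called (60%, against 63.2% of all genes), 8 higher and 16 lower, the 19 among them. With both changes, 26 were called (58.9% of all genes), 13 higher and 13 lower. STAT2, OAS3, IFIT1, IFIT2, GBP1, GBP2, IFI35, PARP9 and CXCL10 were called in each of the 16 alternatives run for them.

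**Figure D3:**
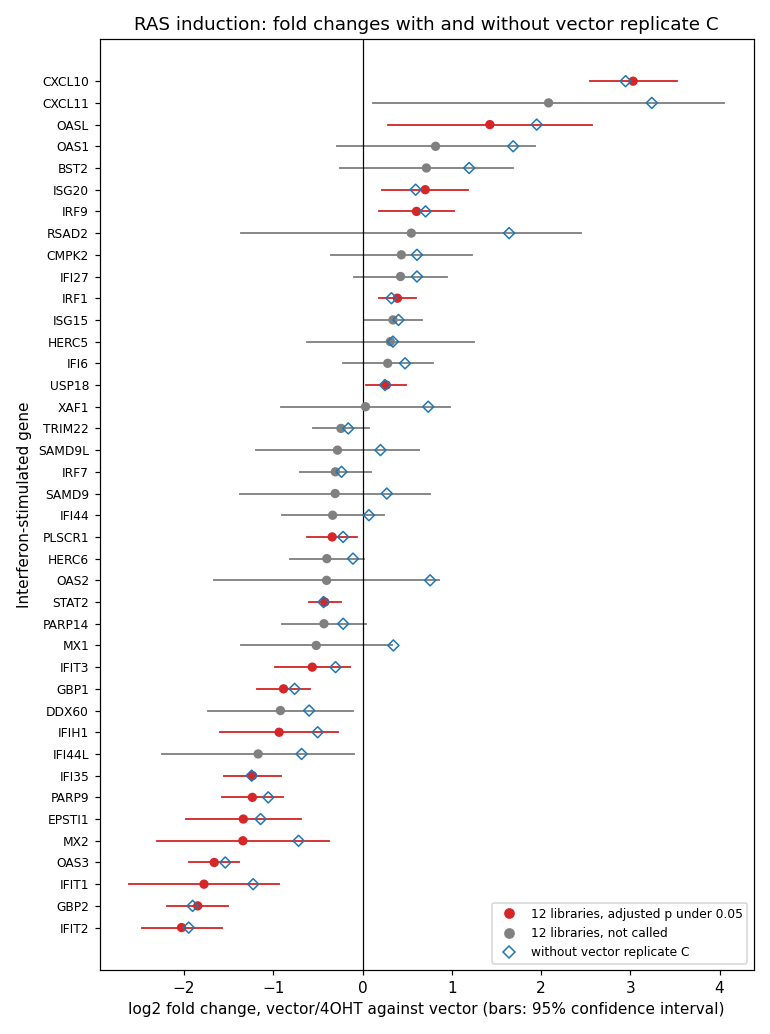
Log2 fold change of each member in vector/4OHT against vector with its 95% confidence interval from 12 libraries (filled, red where called), and the value without vector replicate C (open). OAS2, MX1, SAMD9, SAMD9L and IFI44 move across 0 when replicate C is left out, while CXCL10, IFIT2, GBP2 and OAS3 stay in place.

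The IFIT family are RNA-binding proteins that block translation of viral RNA, with genes side by side on chromosome 10. The family fell as a whole (3 of 3, where 26.1% of all genes were called lower). IFIT2 was at 5.93, 8.06 and 8.19 CPM in vector and 1.69, 2.30 and 1.53 CPM in vector/4OHT (log2 fold change -2.03, SE 0.21, adjusted p = 4.89e-06). IFIT1 was at 5.04, 7.46 and 15 CPM in vector and 2.40, 3.12 and 2.56 CPM in vector/4OHT (log2 fold change -1.78, SE 0.38, adjusted p = 0.00200). All 3 induced libraries lay below the lowest control library in both genes, and without replicate C the log2 fold changes were -1.95 and -1.22. IFIT3 was at 12.3, 16.2 and 22.7 CPM and 11.8, 12 and 10.9 CPM (log2 fold change -0.56, SE 0.19, adjusted p = 0.0286). This smaller fall was -0.30 without replicate C and not called. All 3 genes lie opposite LIPA, a lysosomal lipase gene with 34608 counts over the 12 libraries, and the strand setting of the counting is not given in the sources used here.

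Among the GTPases, which restrict viruses and intracellular pathogens, 3 of 4 fell. GBP2 was at 7.76, 7.75 and 6.80 CPM in vector and 1.91, 2.20 and 2.10 CPM in vector/4OHT (log2 fold change -1.85, SE 0.16, adjusted p = 1.01e-06). Here the 3 control libraries lay close together, replicate C lowest. GBP1 was at 41, 49 and 57 CPM and 25.8, 26.7 and 27.2 CPM (log2 fold change -0.88, SE 0.14, adjusted p = 0.000168), and its groups did not overlap either. MX2, which blocks nuclear entry of retroviruses, was at 0.433, 0.486 and 1.22 CPM and 0.246, 0.284 and 0.303 CPM (log2 fold change -1.34, SE 0.44, adjusted p = 0.0230). Its fall was -0.72 without replicate C and not called, and it was called in 8 of 15 alternatives. MX1 was at 3.17, 3.23 and 3.09 CPM in vector/4OHT, above vector replicates T and A and below replicate C, and was not called (log2 fold change -0.52, 95% confidence interval -1.36 to 0.33). Without replicate C it was 0.35, and with the GC/length correction as well it was 0.49 and called.

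The sensors and the OAS family, enzymes that respond to double-stranded RNA, split. OAS3 was at 23.5, 20.0 and 27.4 CPM in vector and 6.83, 7.83 and 7.73 CPM in vector/4OHT (log2 fold change -1.66, SE 0.13, adjusted p = 3.72e-07). The groups lay far apart with or without replicate C (-1.54 without it). IFIH1, the cytosolic RNA sensor MDA5, was at 2.75, 3.16 and 6.06 CPM and 2.21, 2.37 and 1.73 CPM (log2 fold change -0.93, SE 0.30, adjusted p = 0.0221). The induced libraries lay below all controls, but without replicate C the log2 fold change was -0.50 and not called. OASL, an OAS-like protein without enzyme activity, went the other way, from 0.124, 0.0729 and 0.227 CPM to 0.246, 0.638 and 0.303 CPM (log2 fold change 1.43, SE 0.52, adjusted p = 0.0363), at few counts. DDX60, at 4.48, 4.68 and 4.12 CPM in vector/4OHT, was not called (log2 fold change -0.92, 95% confidence interval -1.73 to -0.11), but was called after the GC/length correction (edgeR adjusted p = 0.00163). OAS1 (0.82) and OAS2 (-0.40) were not called, and without replicate C they were at 1.69, which was called, and 0.76. OAS1 ranged from 0.0972 to 1.04 CPM and OAS2 from 0.154 to 1.22 CPM over the 12 libraries.

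Of the transcription factors, STAT2 fell and IRF1 and IRF9 rose. STAT2, a subunit of ISGF3, was at 141, 123 and 127 CPM in vector and 101, 93.3 and 97.4 CPM in vector/4OHT (log2 fold change -0.42, SE 0.081, adjusted p = 0.000874). IRF9, the DNA-binding subunit of the same complex, was at 0.618, 0.680 and 0.793 CPM and 1.01, 1.24 and 0.968 CPM (log2 fold change 0.60, SE 0.19, adjusted p = 0.0193). The groups did not overlap in either gene, but STAT2 was called in 16 of 16 alternatives and IRF9 in 9 of 15. IRF9, with 419 counts over the 12 libraries, overlaps AL136295.5 on the same strand (166 counts), so its level is uncertain. IRF1, an activator induced through GAS, was at 28.8, 28.2 and 24.4 CPM and 35.1, 35.4 and 36.2 CPM (log2 fold change 0.39, SE 0.10, adjusted p = 0.00453). It lost the call with upper-quartile factors and kept it in the other 15 alternatives. IRF7, which amplifies interferon production, ranged from 2.08 to 4.04 CPM over all libraries and was not called (-0.30).

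In the ISG15 system 1 of 4 was called. USP18, the protease that removes ISG15 and dampens interferon receptor signalling, was at 15.6, 13 and 13.8 CPM in vector and 16.8, 16.4 and 17.7 CPM in vector/4OHT (log2 fold change 0.27, SE 0.10, adjusted p = 0.0454). The rise was small, 0.25 and not called without replicate C, and 6 of 16 alternatives called it. ISG15 itself was higher in every induced library than in any control (23.6 to 24 CPM, against 17.8 to 20.3 CPM in vector) without being called (log2 fold change 0.34, SE 0.15, adjusted p = 0.0714). It was called after the GC/length correction (0.46, and 0.60 without replicate C). The ligases HERC5 (0.247 to 1.03 CPM) and HERC6 (2.98 to 6.01 CPM over the 12 libraries) were not called. UBA7 and UBE2L6, the activating and conjugating enzymes of the same pathway, are described with the other pathway genes.

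Of the 15 other effectors, 3 fell and 1 rose. IFI35, a leucine-zipper protein, was at 6.83, 7.92 and 7.20 CPM in vector and 3.09, 2.62 and 3.55 CPM in vector/4OHT (log2 fold change -1.23, SE 0.15, adjusted p = 1.88e-05). EPSTI1 was at 1.61, 1.38 and 2.13 CPM and 0.738, 0.851 and 0.484 CPM (log2 fold change -1.33, SE 0.29, adjusted p = 0.00231). Neither depended on replicate C (-1.24 and -1.14 without it). PLSCR1, a phospholipid scramblase, was at 15.6, 16 and 19.9 CPM and 13.5, 14.7 and 12.5 CPM (log2 fold change -0.34, SE 0.13, adjusted p = 0.0443), and was not called without replicate C (-0.22). ISG20, an exonuclease that degrades viral RNA, was at 0.711, 1.09 and 0.708 CPM and 1.67, 0.992 and 1.43 CPM (log2 fold change 0.70, SE 0.22, adjusted p = 0.0187). It was called although vector replicate A lay above vector/4OHT replicate A, and lost the call without replicate C (0.60).

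The remaining 11 effectors were not called in the fit of all 12 libraries. XAF1 was at 1.56, 1.88 and 1.57 CPM in vector/4OHT (log2 fold change 0.034, and 0.74 without replicate C). SAMD9 was at 17.2, 17.5 and 13.5 CPM, SAMD9L at 17.6, 19.2 and 14.8 CPM and IFI44 at 4.32, 4.47 and 3.99 CPM in vector/4OHT. In these 3 genes the log2 fold change was below 0 with replicate C (-0.31, -0.28 and -0.33) and above 0 without it (0.27, 0.20 and 0.072). TRIM22, a ubiquitin ligase, ranged from 18.9 to 36.6 CPM over the 12 libraries, IFI6 from 10.8 to 25 CPM and IFI27 from 0.413 to 0.846 CPM. BST2, the tetherin that holds budding virions at the cell surface, ranged from 0.170 to 0.780 CPM, CMPK2 from 0.216 to 0.640 CPM, IFI44L from 0.137 to 1.53 CPM and RSAD2, the radical enzyme viperin, from 0.0273 to 0.640 CPM. IFI44L was called after the GC/length correction (-1.25), but not without replicate C (-0.92). With the correction and without replicate C, BST2 (1.38), IFI6 (0.65) and IFI27 (0.78) were called. RSAD2 and CMPK2 lie opposite each other, so reads could be shared between them. The same holds for TRIM22 (12298 counts over the 12 libraries) and TRIM5 opposite it (16285 counts).

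PARP9 and PARP14, ADP-ribosyltransferase family members that act with interferon signalling, lie on chromosome 3. PARP9 was at 20.1, 20.6 and 28.3 CPM in vector and 9.48, 10.3 and 9.54 CPM in vector/4OHT (log2 fold change -1.23, SE 0.16, adjusted p = 3.72e-05). The fall was -1.06 without replicate C, and the gene lies opposite its partner gene DTX3L, which had 13988 counts. PARP14 ranged from 24.9 to 56.6 CPM and was not called (-0.43, 95% confidence interval -0.91 to 0.043). It was called after the GC/length correction (-0.40), but not without replicate C (-0.27).

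The chemokines, which attract T cells through the receptor CXCR3, were the members that rose most. CXCL10 was at 0.463, 0.437 and 0.368 CPM in vector and 3.44, 3.58 and 3.43 CPM in vector/4OHT (log2 fold change 3.03, SE 0.22, adjusted p = 2.63e-07). That is an 8.18-fold rise with close replicates, and it did not rest on replicate C (2.95 without). CXCL11, at 0.0309, 0.0243 and 0.142 CPM and 0.301, 0.354 and 0.222 CPM, was higher in every induced library but was not called (log2 fold change 2.08, SE 0.90, adjusted p = 0.0653), and was called without replicate C (3.24) and after the GC/length correction (1.96). CXCL10 is also a target of NF-kB.

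**Figure D4:**
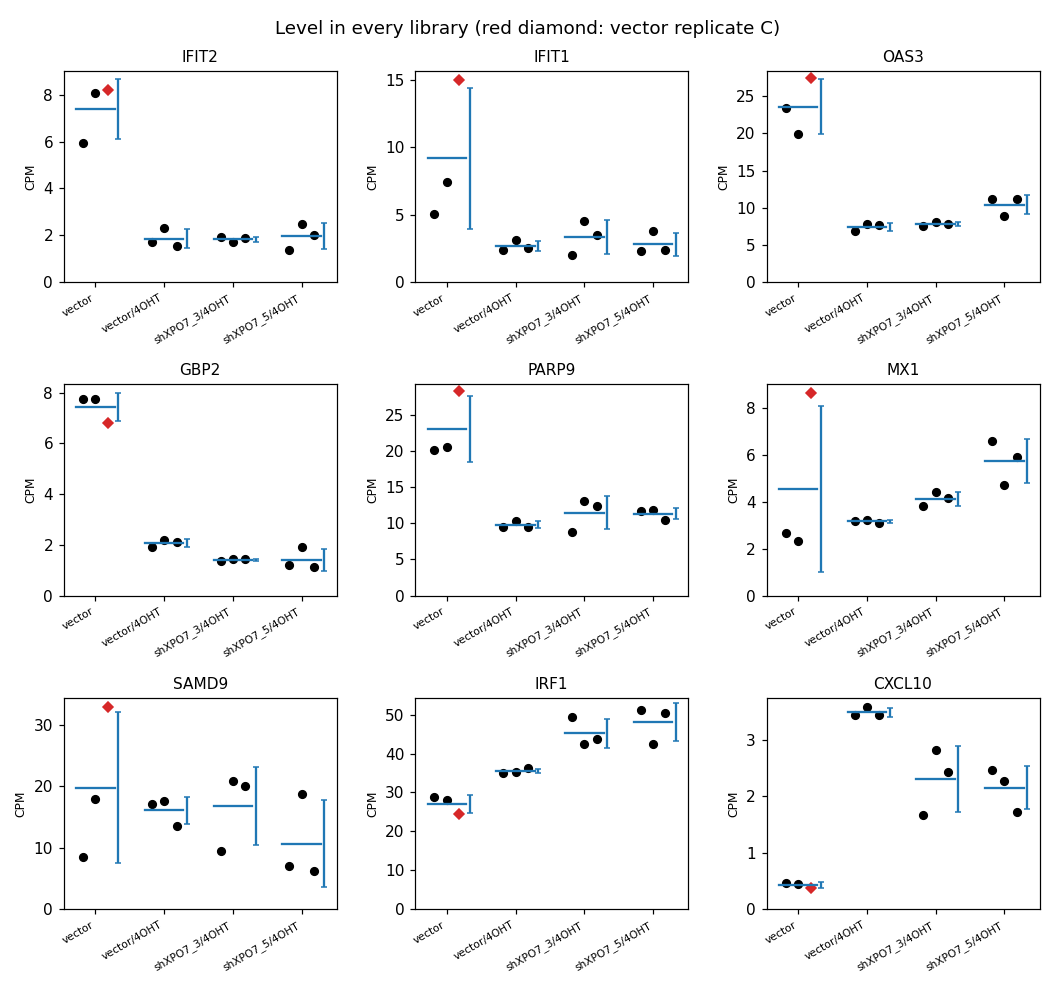
Level in CPM of 9 members in every library, with the group mean (horizontal line) and SD (bar beside it), vector replicate C as a red diamond. IFIT2, OAS3, GBP2 and PARP9 were lower in all induced libraries, CXCL10 was higher, and in MX1 and SAMD9 replicate C lay far above its group.

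Outside the members, a list of 44 other genes of the pathway was followed, of which 33 passed the filter. Of these, 8 rose and 8 fell in OIS (48.5% called, against 50.9% of all genes), so the share called was close to that of all genes. Without replicate C 7 rose and 9 fell (48.5%, against 47.2% of all genes). After the GC/length correction 12 rose and 8 fell (60.6%, against 63.2% of all genes). The receptor chains rose modestly, IFNAR1 by 0.54, IFNAR2 by 0.57, IFNGR1 by 0.45 and IFNGR2 by 0.21 on the log2 scale. These are 4 of 5 tested, where 24.8% of all genes were called higher. IFNGR2 was not called without replicate C (0.18) and was called in 7 of 16 alternatives. JAK1, JAK2, TYK2 and STAT3, which carry signals from cytokine receptors, had 0 of 4 called by edgeR's quasi-likelihood test, and 0 of 4 had an unadjusted p under 0.05. STAT3 (0.22) and TYK2 (0.12) were called after the GC/length correction. IFNE rose (2.21, 2.13 and 1.53 CPM in vector/4OHT, log2 fold change 2.28). Among sensors and adaptors IRF3 (0.39), TICAM1 (0.33) and ADAR (0.29) rose. Without replicate C, IRF3 (0.35) and TICAM1 (0.28) lost the call, and RIGI, a cytosolic RNA sensor (0.71), IFI16, a DNA sensor (0.89), and CGAS, the sensor of cytosolic DNA (-0.25), gained it. After the GC/length correction all but CGAS of these were called, RIGI at 0.48 and IFI16 at 0.60. TLR3, the endosomal sensor of double-stranded RNA, fell from 0.772, 1.24 and 1.36 CPM to 0.0820, 0.0709 and 0.0605 CPM (log2 fold change -3.95, SE 0.48, adjusted p = 1.86e-05). DHX58, a helicase that binds viral RNA, also fell (log2 fold change -1.40). Among regulators, 6 of 11 fell and 0 rose, where 26.1% of all genes were called lower and 24.8% higher. SOCS1, the feedback inhibitor of the JAK kinases, fell from 7.29, 8.67 and 5.81 CPM to 0.601, 0.815 and 0.807 CPM (log2 fold change -3.29, SE 0.21, adjusted p = 5.94e-08). UBA7, which activates ISG15, fell from 20.4, 19.1 and 16.9 CPM to 2.65, 2.13 and 2.64 CPM (log2 fold change -2.91, SE 0.20, adjusted p = 1.55e-07), and UBE2L6, which conjugates it, also fell (log2 fold change -0.90). The others that fell were TREX1 (-0.42), NLRC5 (-0.32, called in 9 of 16 alternatives) and IRF2 (-0.53). The other genes not called, IL10RB, STING1, MAVS, TBK1, EIF2AK2, SOCS3, PIAS1, SAMHD1, PTPN2 and IRF2BP2, had log2 fold changes from -0.22 to 0.30. IFNLR1, AIM2, ZBP1 and IKBKE were among the 11 that did not pass the filter. IKBKE had 0 counts under the identifier matched to it, may be counted under another, and was not interpreted.

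The shRNA groups were compared with vector/4OHT to ask whether loss of XPO7 alters these genes in OIS. Both comparisons share the 3 vector/4OHT libraries. In shXPO7_3/4OHT, 0 of the 40 members were called by edgeR's quasi-likelihood test, where 0.124% of all genes were, and 0 by DESeq2. At an unadjusted p under 0.05 there were 4 members (6.41% of all genes). IRF1 was at 49.4, 42.4 and 43.8 CPM with shXPO7_3 (log2 fold change 0.35, SE 0.095, adjusted p = 0.293). All 3 libraries lay above the vector/4OHT libraries. GBP2 was at 1.37, 1.45 and 1.43 CPM (log2 fold change -0.54, SE 0.17, adjusted p = 0.443) and CXCL10 at 1.67, 2.81 and 2.43 CPM (log2 fold change -0.59, SE 0.18, adjusted p = 0.365), in both cases below every vector/4OHT library. PLSCR1 was at 13.9, 17.6 and 18 CPM (log2 fold change 0.28, SE 0.13, adjusted p = 0.763). Over all members, 29 had a log2 fold change above 0, with a median of 0.15, where the median of all genes was -0.0031. Groups did not overlap in 4 members that were higher (IRF1, USP18, HERC6 and MX1; 7.46% of all genes) and 4 that were lower (IRF9, ISG15, GBP2 and CXCL10; 7.15%). After the GC/length correction IRF1 (0.33) and PLSCR1 (0.32) were called (1.96% of all genes). The intervals were wide for low genes, such as -1.60 to 1.81 for RSAD2, and narrow for STAT2 (-0.13 to 0.22).

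In shXPO7_5/4OHT, 0 of the 40 members were called by edgeR's quasi-likelihood test, where 0.589% of all genes were, and DESeq2 called 3, IRF1, OAS3 and IFI35 (3.46% of all genes). At an unadjusted p under 0.05 there were 10 members, in a comparison where 21.6% of all genes reached it. IRF1 was at 51.3, 42.5 and 50.4 CPM (log2 fold change 0.44, SE 0.10, adjusted p = 0.0616), and IFI35 at 4.78, 4.02 and 5.65 CPM (log2 fold change 0.63, SE 0.15, adjusted p = 0.0801). OAS3 was at 11.1, 8.91 and 11.2 CPM (log2 fold change 0.48, SE 0.13, adjusted p = 0.104) and MX1 at 6.57, 4.71 and 5.90 CPM (log2 fold change 0.86, SE 0.38, adjusted p = 0.227). In these 4 genes every shXPO7_5/4OHT library lay above every vector/4OHT library, and in OAS3 and IFI35 all lay below every vector library. IRF7 (0.59), HERC6 (0.45) and STAT2 (0.18) had log2 fold changes above 0, and TRIM22 (-0.34) below. CXCL10 was at 2.46, 2.27 and 1.72 CPM (log2 fold change -0.70, SE 0.18, adjusted p = 0.0982) and GBP2 at 1.21, 1.90 and 1.12 CPM (log2 fold change -0.55, SE 0.18, adjusted p = 0.156). In CXCL10 and GBP2 all libraries lay below vector/4OHT, with either shRNA.

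The groups did not overlap in 8 members that were higher (14.2% of all genes) and 3 that were lower (12.6%). Over all members 29 had a log2 fold change above 0, with a median of 0.17 (0.0058 over all genes). The fold changes with shXPO7_5 went with GC content over the members (Spearman's rho 0.54, n = 40, and -0.11 for shXPO7_3), values from libraries that share their GC trend. After the correction IRF1 (0.29), GBP1 (0.33) and PLSCR1 (0.44) were called (2.85% of all genes), and CXCL10 moved from -0.70 to -0.29 and IFI35 from 0.63 to 0.48. Without replicate A of shXPO7_5/4OHT, 8 members were called, 5 higher and 3 lower, where 23% of all genes were. They were STAT2, IRF1, IRF7, OAS3 and IFI35, higher, and GBP2, TRIM22 and CXCL10, lower. Replicates T and B of that group had rho of 0.44 and 0.67 with GC content and replicate A -0.24. Of the 33 other pathway genes tested, 0 were called with shXPO7_3 and 1 with shXPO7_5, UBE2L6 at 27.3, 24.1 and 28.4 CPM against 18.5, 19.1 and 19.9 CPM in vector/4OHT (log2 fold change 0.47, SE 0.076, adjusted p = 0.0195). It was called in 9 of 15 alternatives. With shXPO7_3 it was at 25.3 to 26.2 CPM, also above every vector/4OHT library (log2 fold change 0.43, SE 0.076, edgeR adjusted p = 0.0751). The GC/length correction gave calls there for UBE2L6 (0.42), SOCS3 (0.30), IRF2 (0.26) and STAT3 (-0.28), 4 of 33, where 1.96% of all genes were called. Between the shRNAs it gave a call for STAT3 (0.29).

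**Figure D5:**
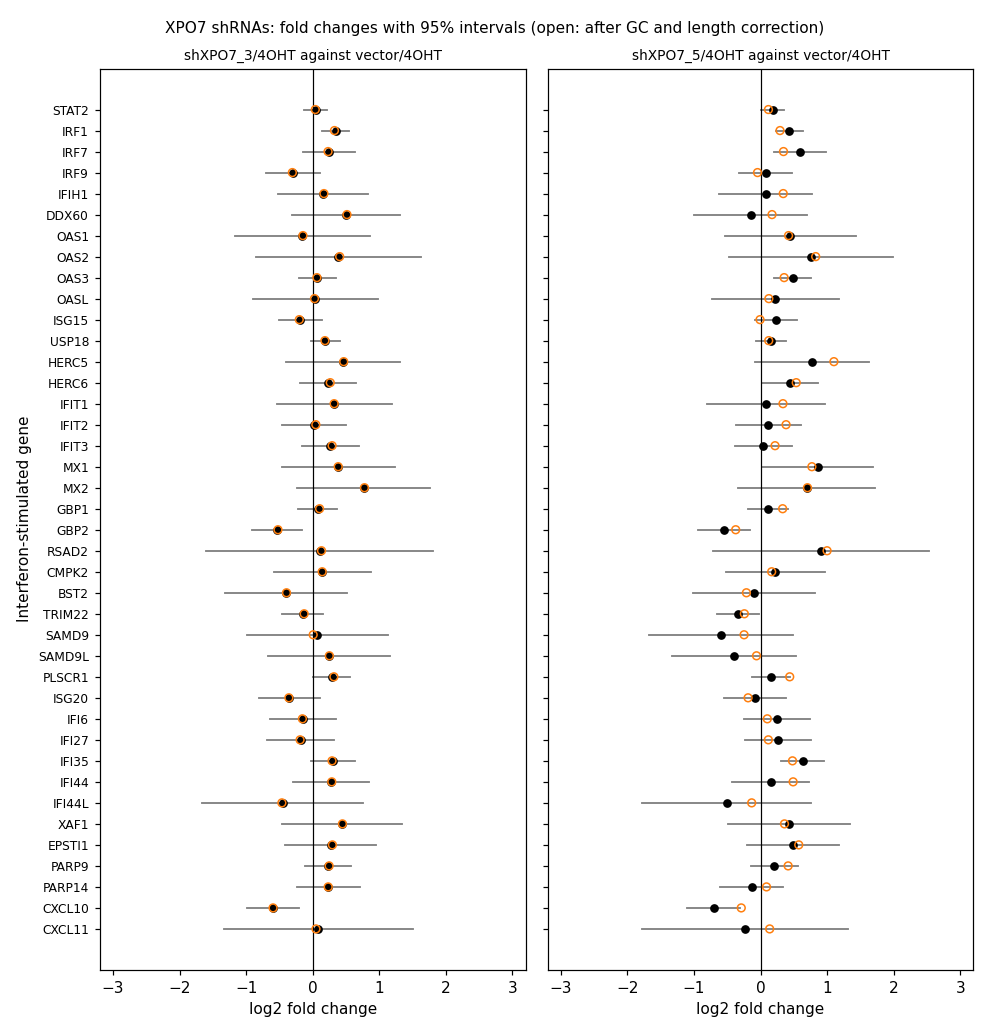
Log2 fold change with 95% confidence interval of each member for shXPO7_3/4OHT (left) and shXPO7_5/4OHT (right) against the same vector/4OHT libraries (filled), and the value after the GC/length correction (open). With either shRNA most members lie slightly right of 0, and GBP2 and CXCL10 lie left of it.

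Tested directly, shXPO7_5/4OHT and shXPO7_3/4OHT differed in 0 of the 40 members by edgeR's quasi-likelihood test (0.0131% of all genes), and DESeq2 also called 0. At an unadjusted p under 0.05 there were 3 members (11.9% of all genes), OAS3 (0.41, 95% confidence interval 0.13 to 0.69), ISG15 (0.42, 0.10 to 0.74) and IFI35 (0.32, 0.0044 to 0.64), all higher with shXPO7_5. For the members with the largest OIS change, the interval of the difference was -0.51 to 0.30 for CXCL10, -0.38 to 0.58 for IFIT2, -0.41 to 0.39 for GBP2 and -1.11 to 0.62 for IFIT1. SAMD9 and SAMD9L varied widely between libraries of 1 group. SAMD9 was at 9.47, 20.8 and 20.1 CPM in shXPO7_3/4OHT and 7.01, 18.8 and 6.14 CPM in shXPO7_5/4OHT, and SAMD9L at 11.7, 25.5 and 24 CPM and 9.80, 20.6 and 8.76 CPM. In both genes the libraries with low values (shXPO7_3 replicate T, and shXPO7_5 replicates T and B) were those in which GC-rich transcripts were over-represented, with rho of 0.35, 0.44 and 0.67. After the GC/length correction, the log2 difference between the shRNAs moved from -0.66 to -0.25 for SAMD9 and from -0.65 to -0.31 for SAMD9L.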

How the data were processed

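RNA-seq counts of 12 libraries were analysed, 3 in each of 4 groups taken from the sample labels, with the word vector from the study's text. The authors deposited whole-number counts of reads per gene, not normalized. Tools named in the submitters' processing notes were featureCounts 1.18.0, TopHat2 2.0.11 and CASAVA 1.8.4, with hg19 and GRCh37 as builds. The gene annotation and how strand and multiply matching reads were counted were details not given in the sources used here, which leaves overlapping genes uncertain. The 92 ERCC spike-in entries held 0 counts and were left out. Libraries were made with an Illumina kit for stranded mRNA.

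In R 4.3.3, genes were kept by filterByExpr (15284 of 62069), scaled by TMM and fitted with edgeR 4.0.16 (quasi-likelihood test, all 12 libraries, 4 groups, no covariates), with Benjamini-Hochberg adjustment over all genes tested and a threshold of 0.05. The study's methods name no test for these data. Replicates of each group differed beyond sampling noise (chi-square 4.27 to 56.2 per gene), so none was counted as a repeat.

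The members, the lists, the motifs and the tests were chosen with earlier results of these data known. Values in every library are given for members called in any comparison or ranging over 2-fold between the vector libraries at 1 CPM or more, and ranges for the rest. Alternatives were RLE and upper-quartile factors, 2 other filters, the replicate letter as a block, DESeq2 1.42.0, a fit of only the 2 groups compared and each library left out. The GC/length correction, an offset per library (spline with 5 degrees of freedom, GENCODE 29 transcripts on GRCh38 matched by Ensembl identifier, values for 97.3% of genes), was added after the data were seen. Promoters came from RefSeq. From the recorded list of other pathway genes 2 were left out and are not reported here, which leaves 44. The fits were tested on simulated data. Limits on counts of 0 take 3 counts and cover counting error only.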

Additional observations from a re-analysis of the deposited data

How the results depend on the processing

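For OIS, 13 to 20 members were called with each library left out in turn, and 14 to 28 over the other alternatives, all within 1.5 times the 19 reported. The split moved with the setting, from 3 to 14 members higher and from 9 to 18 lower. Of all genes tested, 6762 of 15541 were called in the fit with 13 members and 9402 of 15284 in that with 28. For single members in OIS, 518 values kept direction and side of the threshold, 47 lost and 44 gained a call, 12 uncalled values changed sign by more than their standard error, and 3 reversed with a call. OAS2 reversed to 0.91 with the replicate block, and MX1 to 0.49 after the GC/length correction without vector replicate C and to 0.48 after that correction with the replicate block. Letter C occurs in 1 library only, so the replicate block gave vector replicate C its own term. The 3 reversals thus came from fits in which that library did not bear on the OIS difference. Why it differs was not tested. For shXPO7_3, 2 members were called after the GC/length correction and 2 after it with the replicate block, and 0 in all other alternatives, leave-one-out fits included (range 0 to 0). Those corrected fits called 300 and 309 of all 15284 genes tested. For shXPO7_5, 2 were called with no filter beyond 1 count, 2 with the replicate block, 3 with DESeq2, 3 after the GC/length correction and 8 after it with the replicate block, and 0 to 8 with each library left out, where the 8 came without shXPO7_5/4OHT replicate A. Of all genes tested, these fits called, in that order, 217 of 31672, 149 of 15284, 450 of 13011, 436 of 15284 and 776 of 15284. Without that replicate, 3634 of 15790 genes were called. Between the shRNAs 0 were called in every alternative run. Whether the replicate letters pair the libraries is not settled. Of 15 same-letter pairs, 7 correlated over 0.1 (range -0.17 to 0.55), and different-letter pairs ran from -0.59 to 0.43. With the replicate block, 17 members were called in OIS, 8 higher and 9 lower, where 7987 of all 15284 genes tested were called. The filter of at least 1 CPM in 6 libraries kept 27 members, and fits of only 2 groups kept 37 to 40. Depth limits OASL, CMPK2, RSAD2, CXCL11, IFI44L, BST2, OAS1, OAS2, MX2 and HERC5, which had under 10 counts in some libraries, and with 3 libraries per group a change that was not called is not shown to be absent.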
